A study of Arabidopsis thaliana with 2 samples.

Results

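Glutathione transferases join the tripeptide glutathione to reactive or foreign molecules, and plants carry large families of them. The 42 genes described here are 27 tau class (GSTU) genes, 12 phi class (GSTF) genes and the dehydroascorbate reductases DHAR1 to DHAR3 of Arabidopsis thaliana, out of 33557 genes listed in each of 2 RNA-seq libraries. They were picked by gene ID from the families' names. The choice was made with the levels of these libraries and the differences between them already known. Every value below is therefore a description and none is tested. GSTU20 and GSTF11 are not among the 42 and were not looked at. Ranks, arrays and family shares below therefore hold within the 42 only. Both libraries belong to 1 group: whole Col-0 seedlings carrying the arp6-1 mutation, grown for 10 days at 17 °C in long days and harvested 15 min into a temperature shift experiment, begun at ZT1, in the arm kept at that temperature. The mutated gene, ARP6, encodes a component of the SWR1 remodeller, which places the histone variant H2A.Z in chromatin. No other genotype, temperature or time is analysed here, so nothing in these values can be set down to the mutation or to temperature. The labels do not say whether the duplicates came from separate cultures, so the spread between them may be technical. They name both a stranded and an unstranded library kit and 2 sequencing centres, without saying which library had which, so these cannot be told apart from other differences between the libraries.

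As background, the tau and phi classes are among the plant-specific ones. Tau and phi enzymes take part in herbicide and xenobiotic detoxification, in peroxide reduction and in the binding and transport of small molecules such as flavonoids. Conjugates made in the cytosol are pumped into the vacuole by ABCC transporters. DHAR enzymes use glutathione to return dehydroascorbate to ascorbate, which links glutathione to the ascorbate cycle. Many GST genes are induced by oxidative stress, salicylic acid and toxic chemicals, in part through TGA transcription factors, which bind TGACG-type elements.

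The catalytic residue separates these classes: tau and phi enzymes use a serine that activates glutathione, whereas DHAR enzymes use a cysteine. In the coding sequences of the RefSeq TAIR10.1 annotation, the codon aligned with this position encoded serine in 26 of 27 GSTU genes and cysteine in 3 of 3 DHAR genes. The exception was GSTU14, with an aspartate codon. The windows below are 45 bases with that codon in capitals. They are shown for the 7 GSTU genes that lie side by side on chromosome 2, for GSTU14 and for the DHAR genes. GSTU19, the most abundant of the 27 tau genes listed, is also shown.
GSTU1: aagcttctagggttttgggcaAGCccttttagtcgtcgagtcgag
GSTU2: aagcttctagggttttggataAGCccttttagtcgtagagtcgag
GSTU3: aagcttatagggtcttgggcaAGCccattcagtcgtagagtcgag
GSTU4: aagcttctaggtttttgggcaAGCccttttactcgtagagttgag
GSTU5: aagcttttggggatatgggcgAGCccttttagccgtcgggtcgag
GSTU6: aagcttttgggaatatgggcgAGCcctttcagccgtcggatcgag
GSTU7: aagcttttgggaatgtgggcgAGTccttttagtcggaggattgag
GSTU14: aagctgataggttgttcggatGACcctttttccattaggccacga
GSTU19: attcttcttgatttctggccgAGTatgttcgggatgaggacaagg
DHAR1: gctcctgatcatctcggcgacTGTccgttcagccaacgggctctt
DHAR2: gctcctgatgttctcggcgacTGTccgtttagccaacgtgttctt
DHAR3: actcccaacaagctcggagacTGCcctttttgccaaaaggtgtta

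All 27 GSTU genes had 2 exons in their longest transcript, and 9 of 12 GSTF genes had 3. Coding lengths ran from 627 to 846 bases. Coding identity to the closest other gene of the 42 ran from 50.8% for GSTF14, closest to GSTF2, to 94.5% for the pair GSTF2 and GSTF3, with a median of 78.3%. Near-identical copies can split reads, so 100-base windows of each transcript were searched for exact copies in all other annotated transcripts, on either strand. Among the 42, only GSTF6 and GSTF7 shared such windows with each other (1.56% and 1.53% of their windows), and 6 further genes shared windows only with transcripts outside the family. These were GSTU2, GSTU6, GSTU7, GSTF2, GSTF4 and DHAR1, with shares from 4.70% to 55.3%. A shared window need not be a second copy, since a transcript that overlaps the gene, on either strand, also gives a match. The gene sharing most with GSTF4, AT1G02952, overlaps it in the files. Copies and overlaps were not separated for the others. How reads from shared stretches or from either strand were counted is not given in the sources used here. Copies shorter than 100 bases or with a mismatch were not searched for. Reads may therefore still be split between close pairs such as GSTF2 and GSTF3. GSTU7, GSTF4 and GSTF8 overlap another gene's span in the files, so their reads and those of the overlapping gene may not be separable.

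The libraries held 20249142 counts in replicate 1 and 12410991 in replicate 2. ARP6 itself had 7 counts in each. Of the companion lists used here, the widest difference was in 12 dehydration and abscisic acid response genes, such as RAB18 and RD29B, which summed to 235 TPM in replicate 1 and 8049 TPM in replicate 2. In 11 root markers the sum was 170.1 TPM in replicate 1 and 91.3 TPM in replicate 2, with 5 at least 2-fold lower in replicate 2 and none at 0 counts. Their log2 differences ran from -2.45 to -0.22. In 7 shoot markers the sums were 15000.3 and 15668 TPM and the differences ran from -0.16 to 0.56. The part of these differences in the GST values was not tested. In whole seedlings, fewer cells of a type and less RNA per cell cannot be told apart.

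Transcript levels are given as the deposited TPM (a level per transcript length, scaled to the same sum in each library), as the mean ± SD over both libraries (n = 2). The family was well represented: together the 42 genes took 0.534% of all TPM in replicate 1 and 0.601% in replicate 2, a mean of 0.567% ± 0.047. On the log2(TPM + 1) scale their median level was 5.28, with 5.44 and 5.65 in the separate libraries, beside 2.19 over all genes. The value over all genes takes in 9020 of 33557 with 0 counts in both libraries, whereas 1 of the 42 was at 0. GSTF genes had a median of 5.84, GSTU genes 4.92 and DHAR genes 7.73. Mean levels were at least 100 TPM in 11 genes, from 10 to 100 TPM in 19 and under 10 TPM in 12. The 5 highest genes of each library held 56.8% of the family's TPM in replicate 1 and 55.4% in replicate 2. The order of levels was similar in both libraries (Spearman's rho across the 42 genes 0.92, and 0.913 across 20568 genes with at least 20 counts; genes are not independent replicates).

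**Figure D1:**
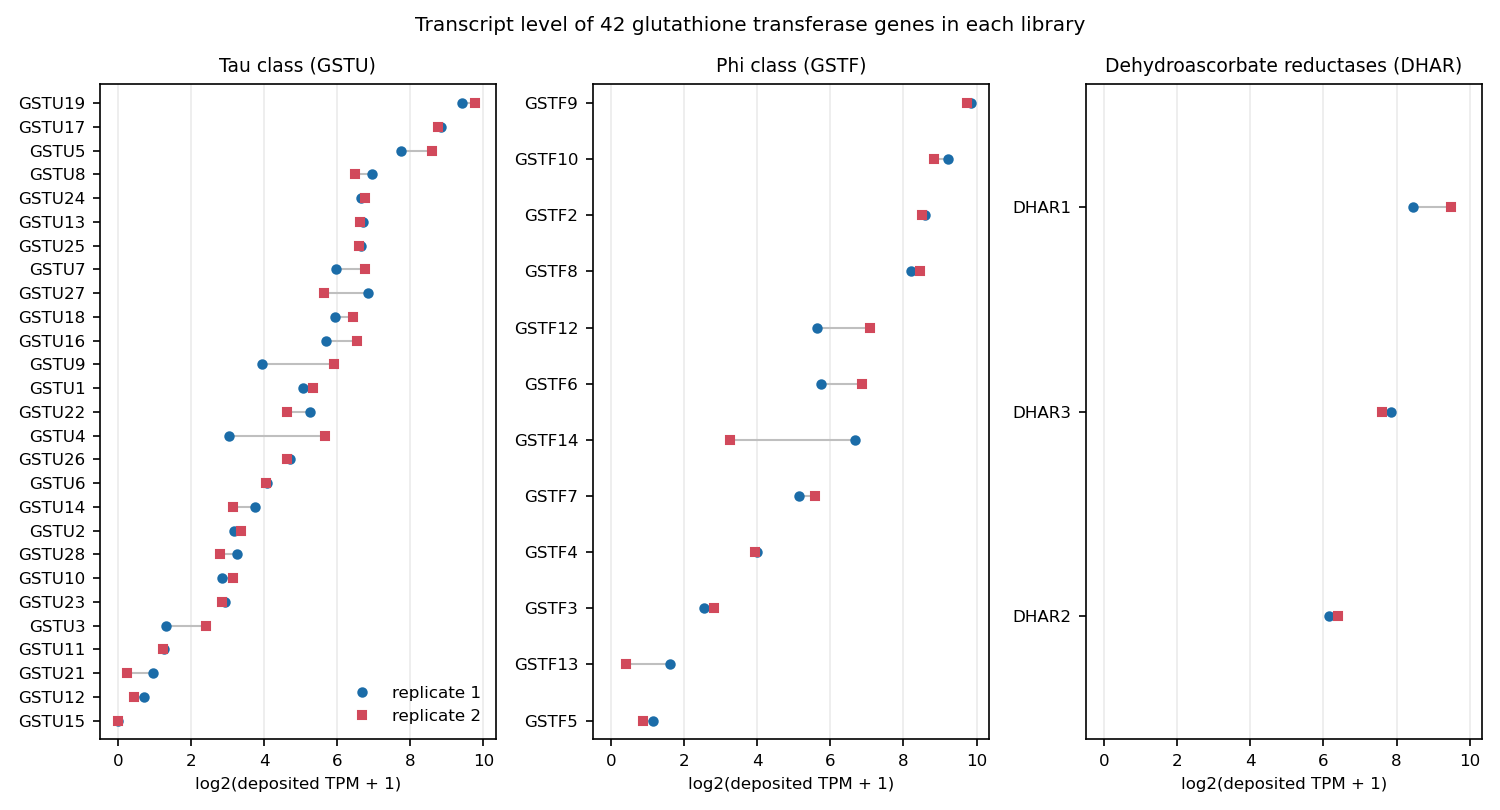
Level of each of the 42 genes as log2(deposited TPM + 1) in replicate 1 (blue circles) and replicate 2 (red squares), by class and ordered by mean level. GSTF9 and GSTU19 stand highest, GSTU15 is at 0 in both libraries, and the widest grey connecting lines belong to GSTF14 and GSTU4.

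Among the phi genes, GSTF9 (AT2G30860), an enzyme with glutathione peroxidase activity, had the highest mean level of the 42. It had 915 TPM in replicate 1 and 849 TPM in replicate 2 (882 ± 46.2), which ranked it 85 and 99 among all genes. In replicate 2 the tau gene GSTU19 was higher, at 870.5 TPM, so the top place is not settled. Its chromosomal neighbour GSTF10 (AT2G30870), first isolated as a gene responsive to dehydration (ERD13), had 593 and 452 TPM (523 ± 99.7). GSTF9 and GSTF10 together carried 28.3% of the family's TPM in replicate 1 and 21.7% in replicate 2. GSTF2 (AT4G02520), whose protein binds flavonoids and indole compounds, had 381 and 365 TPM (373 ± 11.7). GSTF8 (AT2G47730), whose promoter is a long-used reporter of stress, had 295 and 348 TPM (321 ± 37.7). GSTF2 was above GSTF8 in each library, by a gap of about their spread.

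The remaining phi genes were far lower. GSTF12 (TT19, AT5G17220), which is needed for anthocyanin and proanthocyanidin to reach the vacuole, had 91.4 ± 60.8 TPM, and GSTF6 (AT1G02930), which acts in the synthesis of the phytoalexin camalexin, had 84.4 ± 45.5 TPM. GSTF14 had 55.0 ± 65.6 TPM, a spread wider than its mean, so its place in the order is not fixed by these libraries. GSTF7 had 40.7 ± 8.78 TPM. GSTF4 was listed at 14.7 ± 0.471 TPM, but its deposited TPM was 3.84 and 2.89 times the TPM computed from its counts and exon length, and its level is uncertain. GSTF3, 94.5% identical in coding sequence to GSTF2, had 5.47 ± 0.898 TPM, well below that close copy. GSTF13 and GSTF5 were near the bottom, at 1.19 ± 1.21 and 1.03 ± 0.288 TPM.

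Among the tau genes, GSTU19 (AT1G78380) was the most abundant, with 682 and 870.5 TPM (776 ± 133). Its neighbour in the order, GSTU17 (ERD9, AT1G10370), which has been tied to light and abscisic acid signalling, had 456 and 432 TPM (444 ± 17.6). GSTU5 (AT2G29450) followed with 215 and 386 TPM (300.3 ± 121). GSTU8 (105 ± 23.7 TPM), GSTU24 (104 ± 5.81), GSTU13 (99.8 ± 4.06) and GSTU25 (97.5 ± 2.87) lay within their spreads of each other. GSTU24 and GSTU25 act in the detoxification of the explosive TNT, and GSTU13 in the indole glucosinolate pathway of pathogen defence. The tau genes of the middle range were GSTU7 (84.9 ± 32.3 TPM), GSTU27 (80.9 ± 45.6), GSTU18 (72.8 ± 17.3), GSTU16 (71.7 ± 29.5), GSTU9 (36.6 ± 31.4), GSTU1 (36.0 ± 5.19), GSTU22 (30.4 ± 9.72), GSTU4 (28.4 ± 29.9) and GSTU26 (24.5 ± 1.16). The spreads of GSTU7, GSTU27, GSTU18 and GSTU16 overlapped, so their order is not settled. Nor are the places of GSTU9 and GSTU4, whose wide spreads took in the means of GSTU1, GSTU22 and GSTU26. The spread of GSTU4 was wider than its mean. From GSTU6 (15.9 ± 0.238 TPM) and GSTU14 (10.3 ± 3.30) levels went down through GSTU2 (8.72 ± 0.94), GSTU28 (7.26 ± 1.93), GSTU10 (7.05 ± 1.22) and GSTU23 (6.45 ± 0.296) to GSTU3 (2.92 ± 2.02) and GSTU11 (1.38 ± 0.0466). GSTU15 had 0 counts in both libraries, which allows up to 3 counts, or 0.148 and 0.242 CPM, for counting error only. GSTU12 and GSTU21 were also close to the detection limit, at 0.513 ± 0.201 and 0.567 ± 0.544 TPM. The deposited TPM of GSTU21 in replicate 1, 0.952, was 0.399 times the TPM computed from its counts, so the size of its level is uncertain.

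The 3 DHAR genes were all well expressed. DHAR1 (AT1G19570), a cytosolic enzyme, had 348 TPM in replicate 1 and 722 TPM in replicate 2 (535 ± 264). The chloroplast enzyme DHAR3 (AT5G16710) had 230.4 and 193 TPM (212 ± 26.2), and DHAR2 (AT1G75270) had 70.6 and 83.6 TPM (77.1 ± 9.20). DHAR2 was lowest in each library, and DHAR1 was above DHAR3 in each. Of all TPM, the DHAR genes took 0.0649% in replicate 1 and 0.0999% in replicate 2, the GSTU genes 0.224% and 0.266%, and the GSTF genes 0.244% and 0.234%.

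Of the 42 genes, 28 lie in 9 arrays of family members with at most 10 kb between consecutive members, and 14 lie outside them. Coordinates come from the deposited tables, on TAIR10 according to the submitters' processing notes, and are 1-based. The array with the most genes holds GSTU1 to GSTU7 on chromosome 2, positions 12617936 to 12632473 on the minus strand (14.5 kb), with mean levels from 2.92 to 300.3 TPM. GSTU5 alone held most of the TPM of that array in each library. On chromosome 1, positions 29467437 to 29487906, GSTU23, GSTU22, GSTU21 and GSTU19 spanned mean levels from 0.567 to 776 TPM, the widest range in TPM of the 9 arrays. GSTF7, GSTF6, GSTF5 and GSTF4 lie at positions 658657 to 666452 on chromosome 1. Neighbours of high sequence identity could stand far apart in level: GSTU5 and GSTU6, 83.1% identical in coding sequence, had 300.3 and 15.9 TPM.

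**Figure D2:**
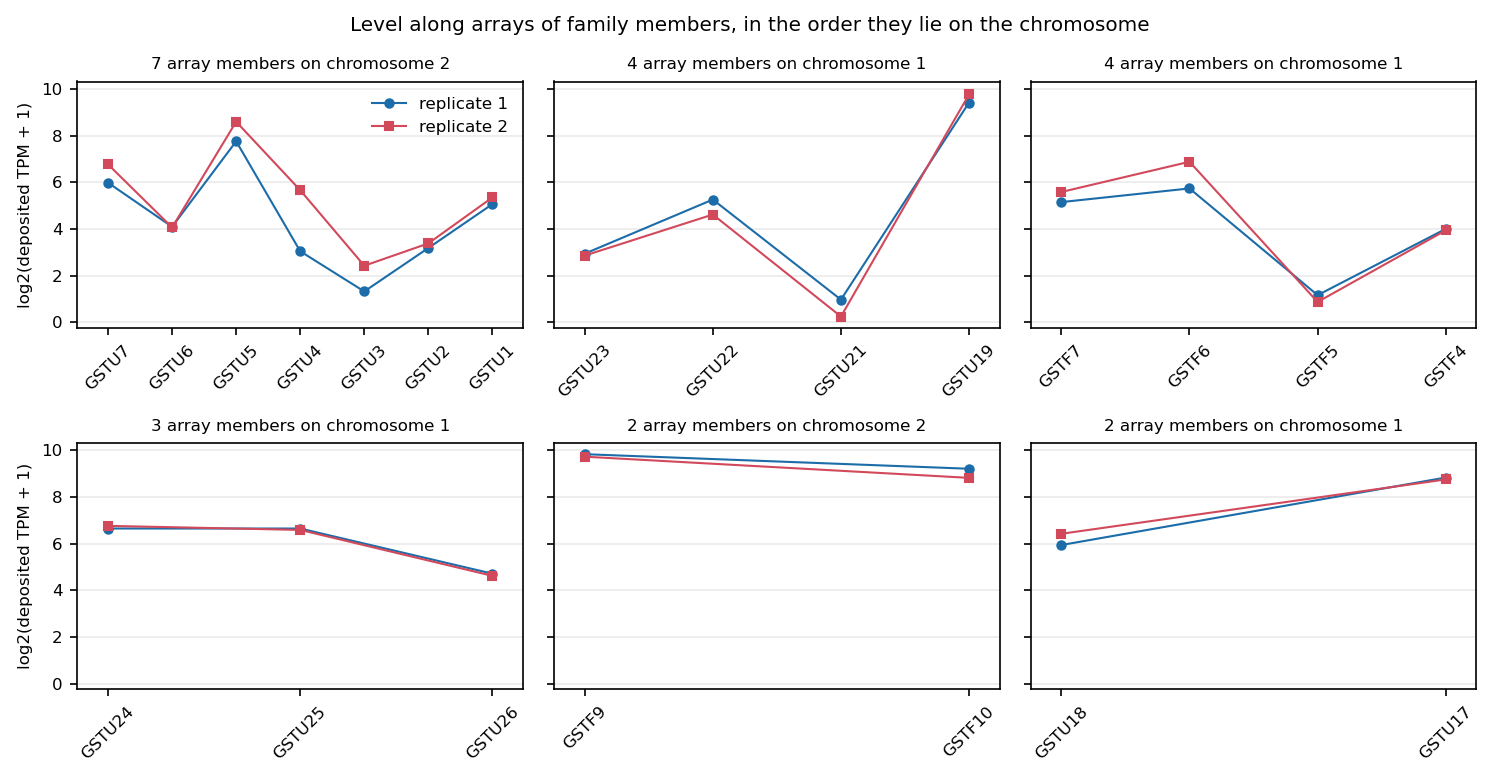
Level as log2(deposited TPM + 1) of the genes of the 6 arrays shown, in chromosomal order, in replicate 1 (blue) and replicate 2 (red); lines join neighbours only to guide the eye. GSTU5 and GSTU19 are the peaks of their arrays, and GSTU4 shows the widest gap between the libraries.

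Differences between the duplicates were described for genes with at least 20 counts summed over both libraries, as log2 of the ratio of scaled counts, replicate 2 over replicate 1, with a 95% counting interval that leaves out all other sources of error. Of the 42 genes, 39 had that many counts; GSTU12, GSTU15 and GSTF5 did not. At least 2-fold higher in replicate 2 were 6 of the 39: GSTU3, GSTU4, GSTU9, GSTF6, GSTF12 and DHAR1. At least 2-fold lower were 4: GSTU21, GSTU27, GSTF13 and GSTF14. Over all 20568 genes compared, 9.84% were at least 2-fold higher and 10.5% at least 2-fold lower, and since these differences were known when the genes were chosen, nothing is read from the counts. GSTU21 and GSTF13 reached the minimum only through replicate 1.

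**Figure D3:**
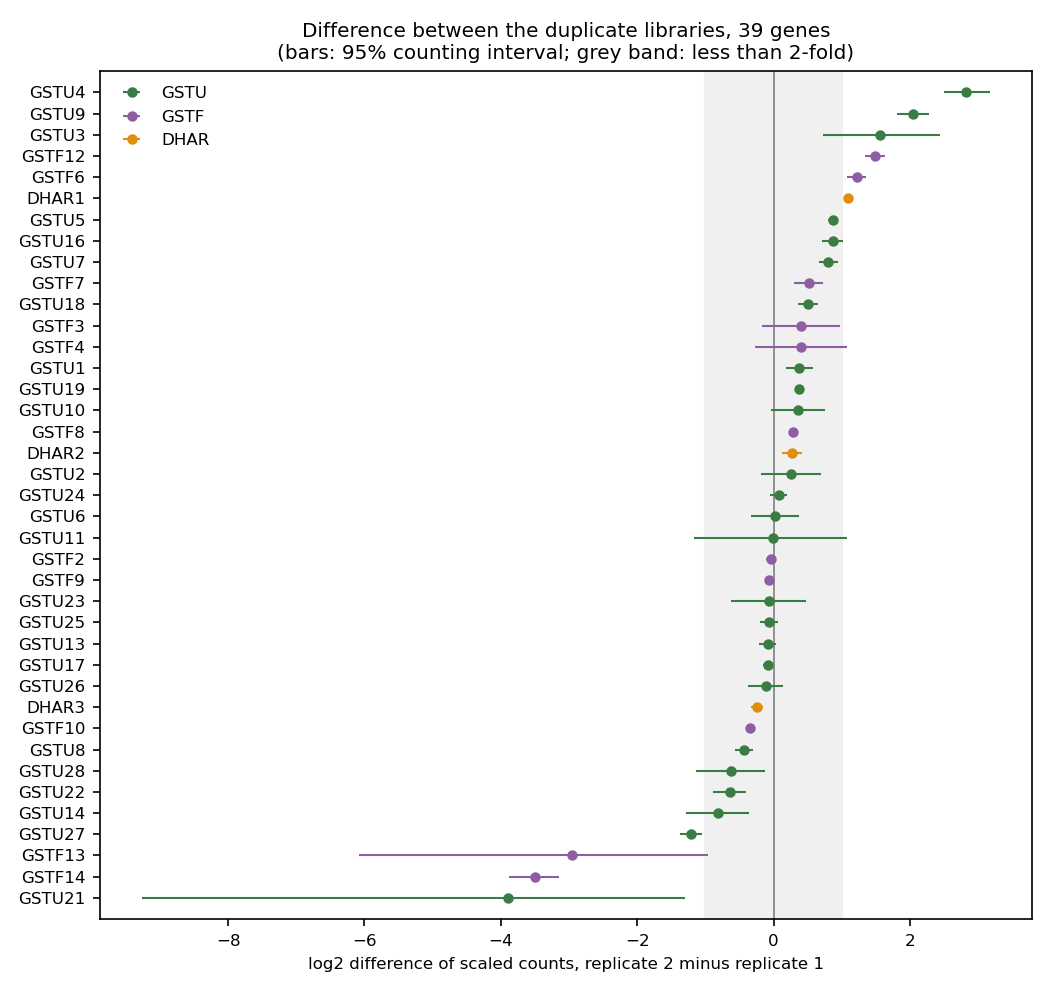
Log2 difference of scaled counts, replicate 2 minus replicate 1, for the 39 genes with at least 20 counts, coloured by class, with 95% counting intervals as bars and the range under 2-fold in grey. GSTU4, at 2.83, is highest, and GSTF14 (-3.51) and GSTU21 (-3.90) are lowest, GSTU21 with a far wider interval.

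The median log2 difference of the 39 genes was 0.07, beside -0.01 over all genes. Of the 39, 21 were above 0 and 18 below, beside 10207 and 10361 of the 20568 genes compared. Under scaling by total counts the GST median was -0.018, beside -0.099 over all genes. The spread was 1.28 (SD of the log2 differences) against 1.06 over all genes. The median size of the difference, with the sign left out, went the other way, at 0.41 against 0.46. The SD weighs genes far from 0, among them GSTU21 and GSTF13, which had few counts. By counting error alone, 15 of the 39 had an interval above 0 and 12 an interval below 0. Over all 20568 genes compared these numbers were 6875 and 6724, so nothing is read from them. The 25 GSTU genes compared included 3 higher and 2 lower at 2-fold, the 11 GSTF genes 2 and 2, and the 3 DHAR genes 1 and 0. Just inside the 2-fold threshold was DHAR1, and just outside were GSTU5 at 0.87 and GSTU16 at 0.86.

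GSTU4 (AT2G29460) had 95 counts in replicate 1 and 388 in replicate 2, and 7.23 and 49.5 TPM. Its log2 difference was 2.83 (counting interval 2.50 to 3.17), or 7.11-fold, a difference exceeded by 1.63% of all genes compared. Its array neighbour GSTU3, at low level, had 20 and 34 counts and a difference of 1.57 (0.73 to 2.44). The other genes of that array ranged from 0.02 for GSTU6 to 0.87 for GSTU5, so all 7 were at or above 0 but their differences were unequal. GSTU1, 83.9% identical to GSTU4 in coding sequence, had 495 and 370 counts and a difference of 0.38. GSTU9 (AT5G62480), on chromosome 5 and in no array, had 208 and 492 counts, 14.4 and 58.8 TPM, and a difference of 2.04 (1.80 to 2.28), or 4.12-fold.

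GSTF12 had 571 and 919 counts, 48.4 and 134 TPM, and was 2.80-fold higher in replicate 2 (log2 difference 1.49, 1.33 to 1.64). GSTF6 had 692 and 924 counts, 52.2 and 117 TPM, and was 2.32-fold higher (1.22, 1.07 to 1.36). GSTF7, its neighbour with 94.3% coding identity, had 414 and 340 counts and a difference of 0.52 (0.30 to 0.73). The intervals of GSTF6 and GSTF7 did not overlap, although both genes were higher in replicate 2. DHAR1 had 4513 and 5547 counts and was 2.14-fold higher (1.10, 1.04 to 1.15), whereas DHAR2 (0.27) and the chloroplast DHAR3 (-0.24) lay near 0.

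GSTF14 (AT1G49860; chromosome 1, positions 18458666 to 18459906, plus strand) was lower in replicate 2. It had 1344 counts in replicate 1 and 68 in replicate 2, and 101 and 8.55 TPM. The ratio was 11.4-fold lower (log2 difference -3.51, -3.88 to -3.15), and 0.306% of all genes compared were lower still. GSTU27 (AT3G43800), on chromosome 3, had 1583 and 394 counts, 113 and 48.7 TPM, and was 2.31-fold lower (-1.21, -1.37 to -1.05). The other genes on this side had few counts. GSTU21 had 26 counts and 1 count (-3.90, -9.26 to -1.30), with deposited TPM of 0.952 and 0.182, which are closer together than its counts, and GSTF13 had 27 and 2 (-2.96, -6.07 to -0.96).

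Of the 7 genes highest in mean TPM, all but DHAR1 differed by less than 0.5 on the log2 scale. These differences were -0.06 for GSTF9, 0.37 for GSTU19, -0.35 for GSTF10, -0.09 for GSTU17, -0.04 for GSTF2 and 0.28 for GSTF8; GSTU5, next in level, stood at 0.87. Within 0.5 of 0 lay 21 of the 39 genes, beside 53.6% of all genes compared. The neighbours GSTU24, GSTU25 and GSTU26 were among the closest, from -0.12 to 0.07. The neighbouring pair GSTU17 and GSTU18, 81.6% identical in coding sequence, stood at -0.09 and 0.51, with counting intervals that did not overlap. The pair GSTU13 and GSTU14, 82.0% identical, stood at -0.08 (-0.21 to 0.04) and -0.81 (-1.28 to -0.36). GSTU14, the gene with the aspartate codon, had 168 and 55 counts. Of the others under 2-fold, GSTU7 (0.80), GSTF3 (0.41), GSTF4 (0.41), GSTU10 (0.36) and GSTU2 (0.26) were above 0, and GSTU8 (-0.43), GSTU22 (-0.64), GSTU28 (-0.62), GSTU23 (-0.07) and GSTU11 (-0.01) were below. The intervals of GSTF3, GSTF4, GSTU10, GSTU2, GSTU23 and GSTU11 included 0.

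Sequence upstream of the genes is shown for GSTU4, GSTU9 and GSTF14, examples from both directions among the genes that differed at least 2-fold; no other annotated gene overlaps their windows. Each is the 250 bases before the gene's start in the RefSeq TAIR10.1 annotation, which can differ from the start in the files, written in the direction of the gene. Capitals mark the letters TGACG (the core bound by TGA factors) and ACGTG (the core of abscisic acid response elements) on either strand. The windows are chr2:12627892-12628141 (minus strand) for GSTU4, chr5:25089627-25089876 (minus) for GSTU9 and chr1:18458276-18458525 (plus) for GSTF14.
GSTU4: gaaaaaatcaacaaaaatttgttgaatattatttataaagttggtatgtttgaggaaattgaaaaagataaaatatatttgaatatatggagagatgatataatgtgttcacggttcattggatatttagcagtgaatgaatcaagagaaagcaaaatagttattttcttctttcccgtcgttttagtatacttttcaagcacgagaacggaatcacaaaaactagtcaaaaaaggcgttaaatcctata
GSTU9: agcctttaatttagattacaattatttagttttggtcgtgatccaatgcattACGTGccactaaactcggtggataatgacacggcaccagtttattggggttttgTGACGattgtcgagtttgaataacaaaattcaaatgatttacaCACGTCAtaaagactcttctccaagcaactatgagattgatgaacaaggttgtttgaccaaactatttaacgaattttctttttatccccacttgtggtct
GSTF14: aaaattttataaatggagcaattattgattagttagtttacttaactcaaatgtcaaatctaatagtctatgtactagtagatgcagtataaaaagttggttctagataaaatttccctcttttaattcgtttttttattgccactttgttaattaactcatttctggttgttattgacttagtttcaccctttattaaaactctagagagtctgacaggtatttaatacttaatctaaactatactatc

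GSTU9 held 2 matches to TGACG and 2 to ACGTG, of which a pair overlaps in CACGTCA. The windows of GSTU4 and GSTF14 held neither. Over all 42 genes, TGACG occurred in 15 windows (35.7%), beside 18.6% of the 27443 windows upstream of protein-coding genes. Windows that overlap another annotated gene were kept in both sets. Among those with TGACG they were the windows of GSTU5, GSTU7, GSTU24, GSTF8 and DHAR1. ACGTG occurred in 16 (38.1%, beside 22.9%) and TTGAC, the core bound by WRKY factors, in 25 (59.5%, beside 44.9%); all were searched on both strands, and TTGACG holds both TTGAC and TGACG. Split by the duplicate difference, TGACG was in 3 of the 6 higher genes, 1 of the 4 lower and 11 of the 29 others. For ACGTG these numbers were 3, 0 and 13, and for TTGAC 5, 2 and 17. A match to such short letters is a description of the window and not a binding site.

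The companion genes of the pathway were taken from lists and are given in the same way. Among 9 genes of other GST classes, 8 were compared, and only GSTZ1, which isomerises maleylacetoacetate in tyrosine breakdown, was 2-fold higher, with 438 and 637 counts and 2.53-fold. The most abundant of them were GSTL3 (289 ± 69.4 TPM) and GSTT1 (118 ± 21.6 TPM). Of 8 genes of glutathione synthesis, reduction and turnover, 7 were compared and none differed 2-fold. GR1, the cytosolic glutathione reductase, had 304 ± 124.5 TPM and a difference of 0.91, and the plastid GR2 had 264 ± 53.0 TPM. The synthesis genes GSH1 (-0.47) and GSH2 (-0.33) were slightly lower in replicate 2. None of 8 glutathione peroxidase-like genes differed 2-fold (median 0.27), with GPX1 at 295 and GPX6 at 264 TPM.

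Of the 5 monodehydroascorbate reductases, which return the ascorbate radical to ascorbate, only MDAR3 differed 2-fold. It had 671 and 74 counts, 24.7 and 4.42 TPM, and was 5.21-fold lower in replicate 2. MDAR1 (266 TPM) and MDAR6 (195 TPM) were the most abundant. The vacuolar conjugate pumps ABCC1, ABCC2 and ABCC3 were close together, at 0.57, 0.57 and 0.62. The 7 TGA factors had a median of 0.08 and none differed 2-fold; TGA1 had 57.0 and TGA7 32.7 TPM.

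Of a list of 9 genes of detoxification, 6 were at least 2-fold higher in replicate 2 and none was at least 2-fold lower, beside 9.84% and 10.5% of all genes compared. Their median was 1.40, with 7 above 0 and 2 below. CYP81D8, a cytochrome P450 used as a marker of xenobiotic response, had 72 and 582 counts and was 14.1-fold higher. The glycosyltransferase UGT74E2 was 4.52-fold higher, CYP81D11 3.08-fold, UGT73B5 2.72-fold, AT2G21640 (annotated as a marker of oxidative stress) 2.64-fold and AER 2.35-fold. CYP81D11 and UGT73B5 overlap another gene's span in the files. AER (160.1 TPM) and OPR1 (156 TPM, difference -0.08) were the most abundant.

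All 5 genes of the late anthocyanin list, the pathway in which GSTF12 acts, were above 0, with a median of 0.91. PAP1, the MYB factor that activates the pathway, had 132 and 414 counts and was 5.46-fold higher, and the enzyme DFR was 2.73-fold higher. The most abundant were DFR at 50.2 TPM and AT4G14090, a glycosyltransferase gene that overlaps another gene in the files, at 36.6 TPM. The dehydration and abscisic acid list, whose sums are given above, had all 12 genes at least 2-fold higher, from 2.86 to 9.77 with a median of 7.30. These lists were chosen with the differences in these libraries known, and their values are set beside those of the GST genes without a test.

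**Figure D4:**
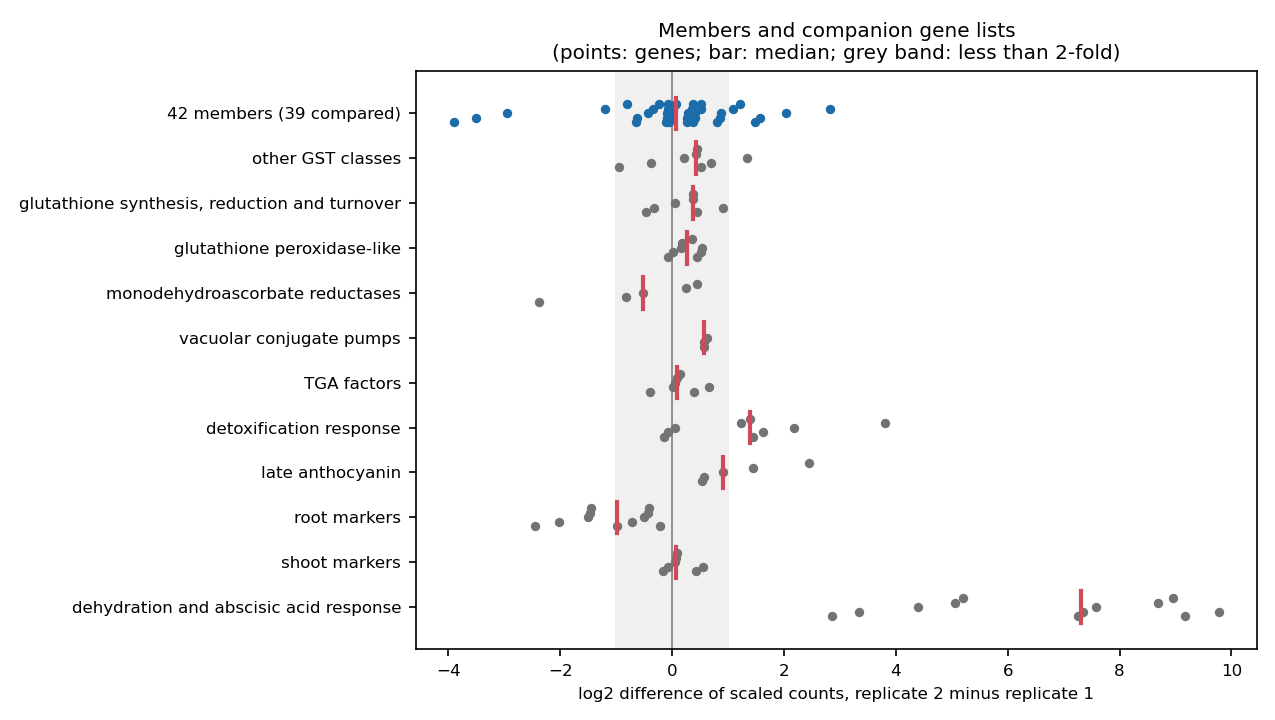
Log2 difference of scaled counts, replicate 2 minus replicate 1, for the 39 GST genes compared (blue) and the genes of 11 companion lists (grey), with red bars for medians and the range under 2-fold in grey. The GST genes centre on 0.07 with tails on both sides, the 12 dehydration and abscisic acid genes lie at a median of 7.30, and the root markers at -0.98.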

How the data were processed

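RNA-seq of 1 group was analysed, in 2 libraries grouped by their titles. Per the labels' protocols, RNA came from ground seedlings (MagMAX kit) and paired-end reads from a HiSeq2000. FastQC, Trimmomatic, TopHat, Picard and TAIR10 appear, without versions or roles, in the submitters' processing notes; which tool counted reads, and with what strand setting, is not given in the sources used here. For every gene a table holds the authors' raw count, not normalized, per the file headers. The FPKM column holds the authors' length-corrected values. The deposited TPM column equals that FPKM rescaled to the same sum in each library (largest relative difference 2.48e-13).

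Levels are deposited TPM, with log2(TPM + 1) for medians. Differences are ratios of counts scaled by TMM (edgeR 4.0.16, R 4.3.3; factors 1.03 and 0.968), for genes with at least 20 counts summed over both libraries; 2-fold was the threshold for naming. A library at 0 was set to a floor of 3 counts. Intervals are 95% Clopper-Pearson intervals and, like the floor, leave out all but counting error; PCR copies were not marked by molecular identifiers, so reads are not independent. No test was made between conditions, since there is 1 group. The ratio and interval code was tested on simulated data. Exon lengths, coding sequences (aligned with Biopython 1.88) and upstream windows came from RefSeq TAIR10.1, in which 32810 of 33557 gene IDs matched. File starts were read as 0-based, since adding 1 gave the reference start for 44.7% of matched genes and 0.408% without it; printed positions are 1-based.

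All 42 genes could be named; from each companion list other than the root, shoot and dehydration lists, which are given by count and range with RAB18 and RD29B as examples, genes at 2-fold or more and the 2 with the highest mean TPM were named, and other list genes were added after their values were seen. Members, lists and tests were chosen with earlier results of these data known. Alternatives were other scalings, count minimums, pseudocounts, TPM from counts, the mean and each library alone.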

Additional observations from a re-analysis of the deposited data

How the results depend on the processing

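The number of GST genes at least 2-fold higher in replicate 2 was 6 under every alternative run: DESeq2 1.42.0 size factors, total counts, at least 10 counts in both libraries, no count minimum, and the ratio of deposited TPM. The number lower was 4 with both other scalings and with deposited TPM and 6 with no minimum, where genes with few counts enter. It was 2 with at least 10 counts in both libraries, a filter that by construction leaves out genes that are low in replicate 2. The median log2 difference of 0.07 stayed within 0.1 under both other scalings (0.08 and -0.018), with no minimum (0.02) and as a mean (0.04). It was 0.26 with at least 10 counts in both libraries, where fewer genes enter, and -0.031 with the ratio of deposited TPM, where the cause was not tested. The sign of the GST median is therefore not fixed by these data. The all-gene median also moved with the scaling, at -0.006 with TMM, 0.0008 with DESeq2 size factors and -0.099 with total counts.

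The median level of 5.28 was 5.44 without replicate 2 and 5.65 without replicate 1, and 6.12 over genes with at least 20 counts, which drops the low genes. The family's share of 0.567% of TPM was 0.398% as a share of counts, which are not corrected for length; without replicate 1 it was 0.601% and without replicate 2 0.534%. No paired analysis was possible because there is only 1 group. Depth limits what can be said of GSTU12, GSTU15, GSTU21, GSTF5 and GSTF13, each with few counts.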
